A study of Rattus norvegicus with 13 samples.

Results

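Preneoplastic foci are small clusters of altered hepatocytes that appear in rat liver after a carcinogen, and 5 arrays of them were compared with 2 arrays of control liver, out of 13 arrays in all. The arrays were chosen by the label of their source, and every probe was kept whose median intensity exceeded 300 in at least one of both groups, which left 6627 of 22523 probes. The foci came from the resistant-hepatocyte model, in which male Fischer rats received diethylnitrosamine and later a diet with 2-acetylaminofluorene together with partial hepatectomy. They were cut out by laser microdissection 1 week after surgery, and each array held pooled foci. The RNA came from a few animals in all, and whether 1 pool mixes animals is not stated. Control liver is labelled as hepatocytes and described in the study as age-matched liver without lesions. The supplement names random areas of normal liver, but the main methods random areas from treated rats, so the lesion and the treatment cannot be told apart. No age is given in the labels. A further 6 arrays of microdissected oval cells, small biliary-like cells from the same treatment and week, entered the fit. The 5 foci arrays lay on one slide, and both control arrays and all oval cell arrays lay on another. Slide and group therefore coincide, and they cannot be told apart in any difference reported here. The labels do not tie arrays to animals, so p-values measure the spread between arrays, and they may be too small where foci arrays share an animal.

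Foci of this model carry the placental form of glutathione S-transferase, a conjugating enzyme encoded by Gstp1 that is scarce in normal rat hepatocytes. Initiated hepatocytes are known for resistance to the toxic diet, with high conjugation and efflux and low bioactivation of drugs, and for dividing while the surrounding liver is blocked. Because foci were recognised in the study by staining for this protein, a high Gstp1 level is a check of the labels and no finding.

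On every array 26.8% of the probes exceeded an intensity of 300, since the deposited values had been normalised by quantiles, and precision is limited by how many arrays there were. Over the tested probes the foci arrays correlated with each other at 0.979 to 0.993 and the control arrays at 0.990, against 0.832 to 0.875 between foci and control. The median SD of a probe on the log2 scale was 0.152 among foci and 0.100 among controls. Differences are given as log2 of foci minus control after background correction with an offset of 50 (± SE from limma), so they are not the plain ratio of the deposited intensities printed beside them. A probe counted as called where the adjusted p of limma was under 0.05 and the difference reached 2-fold or more.

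In limma 1252 probes were called (18.9% of those tested), 706 of them higher in foci (10.7%) and 546 lower (8.24%). At least 4-fold differences were found for 118 probes higher and 114 lower, and at least 8-fold for 32 and 39. The called probes stood for 490 genes higher in foci and 435 genes lower, and 311 of them carried no gene name here. The median difference over all tested probes was -0.01. Intensities of foci and control did not overlap for 4638 probes (70.0%), so separate groups were the rule in these arrays and single out no gene. Ribosomal protein genes had a median of 0.84, and when every array was centred on them the median of all tested probes moved by -0.85, to -0.86. With that centring 162 probes were called higher and 2822 lower, so that 5.43% of calls were higher in place of 56.4%. Directions below are relative to the median of all probes, and a list whose median changes sign under this or another scaling is given with both values. Each count of called genes in a list is to be read beside the shares over all tested probes, 10.7% higher and 8.24% lower.

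**Figure D1:**
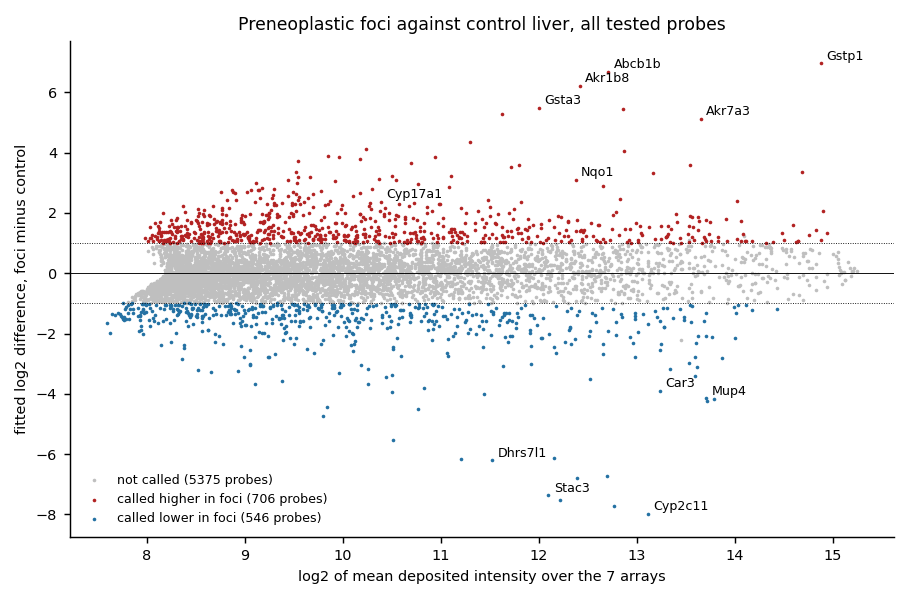
Fitted log2 difference of foci minus control (vertical axis) against the log2 of the mean deposited intensity over the 7 arrays (horizontal axis), 1 point per tested probe, with called probes in colour and dotted lines at the 2-fold limits. Gstp1 stands at 6.97 and Cyp2c11 at -7.99, and the 706 higher and 546 lower calls spread over most of the range of intensities.

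The 4 genes taken as markers of foci were all high on every foci array. Nqo1, Akr7a3 and Gpx2 are also among the genes that the study lists as most raised in its foci. Their rise thus repeats a result of the study and is no separate finding. Gstp1 read 487 and 340.4 on the control arrays and 41982, 40575, 43186, 43186 and 41138 on foci arrays 1 to 5, a log2 difference of 6.97 ± 0.22 (adjusted p = 3.84e-12). It was the brightest probe of foci arrays 3 and 4, where the quantile step sets its value, which leaves the size of the rise uncertain. Nqo1, a quinone reductase, read 1125 and 666 in control and 7398, 4435, 7346, 9153 and 7077 in foci (3.11 ± 0.43, adjusted p = 1.81e-05). Akr7a3, an aldo-keto reductase that reduces aflatoxin aldehyde, read 587 and 559.8 in control and 17162, 15014, 16881, 19361 and 20579 in foci (5.13 ± 0.37, adjusted p = 3.70e-08). For both genes the lowest foci array was the second, and it stayed far above the higher control. Gpx2, a glutathione peroxidase of epithelia, was under 300 on both controls (239 and 233) and read 4005, 3408, 3279, 3241 and 3264 in foci, at least 11.5-fold higher (adjusted p = 1.05e-10). Here and below, a fold is given as at least a value where no array of the dimmer group reached 300, and it is the mean of the brighter group divided by 300.

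Among the genes with a name, the largest rises next to Gstp1 included transport and reduction enzymes. Abcb1b, a multidrug efflux pump of the plasma membrane, rose from 153 and 165 in control to 7154, 9133, 10083, 11752 and 8430.0 in foci, at least 31.0-fold (adjusted p = 4.16e-13). Akr1b8, a reductase of aldehydes and retinal, rose from 165 and 176 to 9598, 7449, 6982, 6374 and 7539, at least 25.3-fold. Gsta3, an alpha class glutathione transferase, rose from 211 and 179.8 to 5870.3, 4453, 5718, 6126 and 6202, at least 18.9-fold. All controls of these genes lay near the dim end of the scale, and by the choice of genes no foci array overlapped them. Acot1, a cytosolic thioesterase that splits acyl-CoA, was at least 5.44-fold higher, and its foci arrays spread from 1036 to 2721. Slc25a4, the heart and muscle form of the mitochondrial exchanger of ADP and ATP, read 719 and 631 in control and 12725, 10923, 8099.9, 8770.2 and 10387 in foci (4.05 ± 0.18). Aldh1a1, which oxidises retinal, read 1504 and 1272 and 14051, 14514, 18582, 19112 and 14240.2 (3.60 ± 0.13), so its rise started from a level that was already high.

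The remaining large rises came from several classes of genes. Abcc3, an efflux pump of the sinusoidal membrane for conjugates, reached 2757, 1966, 2627, 3306 and 2598 in foci from 222 and 269, at least 8.84-fold. Akr1b7, a relative of Akr1b8, was at least 4.11-fold higher. Defb1, an antimicrobial beta-defensin, was at least 4.44-fold and Phgdh, the entry enzyme of serine synthesis, at least 3.29-fold higher. Car2, a cytosolic carbonic anhydrase, read 405 and 506 in control and 4508, 4313, 4347, 3989.7 and 6788 in foci (3.60 ± 0.22). Rbp7, a retinol-binding protein, was at least 7.48-fold higher, and its 5 foci values differed widely (3798, 2970.3, 1355, 688 and 2403). Probes of the Akr1b, glutathione transferase, Mup and Cyp2c families may read near-identical copies of a gene, so the values belong to the probe rather than to one copy with certainty.

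The largest falls were those of genes that are abundant in the liver of male rats, and several fell to the floor of the arrays. Cyp2c11, the main male-specific cytochrome P450, read 29992 and 30950.2 in control and 175, 199, 195, 221 and 169 in foci, at least 102-fold lower (adjusted p = 1.27e-14). Mup4l3, a major urinary protein gene, fell from 25856 and 21945 to 173, 183, 209, 196 and 162, at least 79.7-fold, and Obp3, an odorant and pheromone carrier of the same lipocalin family, was at least 54.1-fold lower. Stac3, named for a muscle protein of calcium release, fell from 17105 and 12767 to 172, 147, 165, 158 and 162, at least 49.8-fold. The 5 foci arrays lay between 147 and 221 for all of these genes, a range in which values have no order. Dhrs7l1, of the short-chain dehydrogenase family, was at least 32.6-fold lower, Aox3, an aldehyde oxidase, at least 8.97-fold and Sez6 at least 9.11-fold. Inmt, which methylates amines, was at least 4.99-fold lower, though its controls differed from each other (2152 and 843).

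Other large falls ended above the floor. Car3, a carbonic anhydrase abundant in male liver, read 29290.4 and 27555 in control and 1306, 1242, 2573, 3379 and 2178 in foci (-3.89 ± 0.64, adjusted p = 8.85e-05). Hao2, a peroxisomal hydroxyacid oxidase, read 8029.7 and 8464 and 483, 481, 607, 753 and 621 (-4.01 ± 0.31). Ppp1r3b, which directs a phosphatase to glycogen, read 5564 and 4905 and 363, 328, 455, 588 and 522 (-3.81 ± 0.25). That every foci array of these 3 genes lay below both controls follows from the choice of genes without overlap. Mup4l4 was the brightest probe of both control arrays, so its fall (-4.16 ± 0.38) is uncertain in size, and Mup4 fell by a like amount (-4.16 ± 0.39). Olr59, an olfactory receptor gene, differed by -3.96 ± 0.31 and Pklr, the liver form of pyruvate kinase, by -3.67 ± 0.17.

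**Figure D2:**
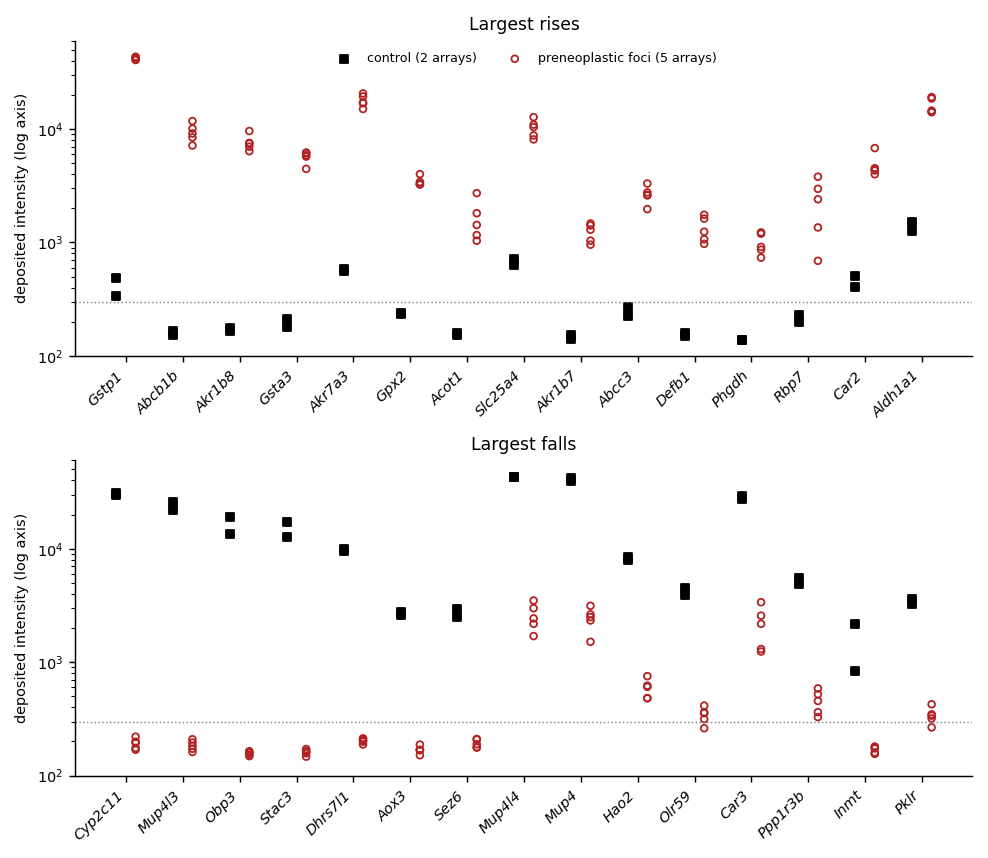
Deposited intensity (logarithmic axis) of the 15 genes with the largest rises (upper panel) and the 15 with the largest falls (lower panel), with black squares for the 2 control arrays and open circles for the 5 foci arrays, and the dotted line at 300. No circle overlaps a square by the choice of genes, which were taken only where foci and control do not overlap. The foci circles of Cyp2c11, Mup4l3, Obp3 and Stac3 lie between 147 and 221.

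Glutathione and thioredoxin genes keep the cell reduced and supply the cofactor of conjugation. Of 24 tested genes, 8 were called higher and 1 lower, with a median of 0.32 that was -0.53 when centred on ribosomal protein genes. Gclc, the catalytic subunit of glutathione synthesis, read 3463 and 3392 in control and 16529, 7596, 13057, 14374 and 17342 in foci (1.97 ± 0.30, adjusted p = 4.77e-05). Its partner Gclm, the modifier subunit, read 3322 and 3529 and 10897, 6516, 10030.2, 10856 and 13470.0 (1.58 ± 0.22). On both, foci array 2 was the lowest by a wide margin and still above both controls. Txnrd1, thioredoxin reductase, read 317 and 393 in control and 2595, 1889, 2077, 2277 and 2686 in foci (2.97 ± 0.16), and Ptgr1, a reductase of unsaturated aldehydes, was 5.48-fold higher. Gss, Gsr and Gpx3 rose as well (1.32 ± 0.12, 1.23 ± 0.15 and 2.23 ± 0.28). The exception was Cat, the catalase of peroxisomes, which fell from 9718 and 9333 to 3566, 3533, 3503, 4216 and 3637 (-1.39 ± 0.28). Keap1, the repressor of the transcription factor Nrf2, was not called (-0.33 ± 0.14, adjusted p = 0.0519), but it was called lower when centred on ribosomal protein genes (-1.18).

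Glutathione S-transferases numbered 18 among the tested genes, of which 6 were called higher and 1 lower, with a median of 0.56 (-0.29 when centred on ribosomal protein genes). Besides Gstp1 and Gsta3, the mu class gene Gstm1 rose from 15085 and 15085 to 38363, 36028, 38618, 40082 and 36981 (1.34 ± 0.20), near the top of the scale, with a value of 0.92 and so no call under cyclic loess. Gsta4, which conjugates lipid aldehydes, differed by 1.00 ± 0.24, and it was under the 2-fold limit without control replicate 2 (0.93) and without foci replicates 3 (0.97), 4 (0.92) or 5 (0.99). Gstm7 moved the other way, from 2146 and 1809 in control to 371, 280.4, 396, 420.4 and 418 in foci (-2.66 ± 0.22, adjusted p = 1.42e-07). The family was therefore split, with members of the pi, alpha and mu classes higher and one mu class member at a fraction of its control level.

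Promoter sequences of these genes were read from RefSeq (build GRCr8) as windows of 250 bases before to 50 after the annotated start, taking the first start listed for a gene. The core of the antioxidant response element, TGACNNNGC, is bound by Nrf2 with small Maf proteins, and its form TGACTCAGC also holds the AP-1 site TGACTCA. Both strands were searched, and the forms overlap, since each TGACTCAGC is also a TGACNNNGC. The shorter form occurred in 12.2% of all 27457 windows, in 67 of 404 windows of genes called higher (16.6%), in 14.5% of those called lower and in 15.4% of those tested and not called. The longer form, looked at after the shorter one, occurred in 0.412% of all windows, in 7 of 404 for genes called higher (1.73%), in 2 of 359 for genes called lower and in 14 of 3533 for the rest. The genes called higher with this form were Gstp1, Pir, Htatip2, F2r, Tomm20, Tor3a and Zfand2a. Pir, a nuclear protein that binds iron, read 405 and 446 in control and 1430.1, 1247, 1434, 1654 and 1496 in foci (1.96 ± 0.15). Htatip2, an oxidoreductase-like protein, read 863 and 778 and 3079, 2241, 2137, 2422 and 2582 (1.68 ± 0.14). The stretches around the match are shown, 5′ to 3′ on the strand of the gene, to set Gstp1 beside called genes of smaller rise, with the match in capitals. The first 3 hold the longer form and the last 2 only the shorter, which in Pir, Gclm and Gpx2 lies on the opposite strand and so reads in reverse complement.
Gstp1 (chr1:210769728-210769796, - strand): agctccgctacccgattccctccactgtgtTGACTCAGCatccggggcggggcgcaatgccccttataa
Pir (chrX:33851020-33851088, - strand): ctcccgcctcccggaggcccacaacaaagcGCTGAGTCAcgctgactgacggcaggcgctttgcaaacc
Htatip2 (chr1:108610039-108610107, + strand): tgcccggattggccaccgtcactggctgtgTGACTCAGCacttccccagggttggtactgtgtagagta
Gclm (chr2:213031933-213032001, + strand): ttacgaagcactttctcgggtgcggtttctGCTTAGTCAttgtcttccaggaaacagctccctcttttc
Gpx2 (chr6:101230008-101230076, - strand): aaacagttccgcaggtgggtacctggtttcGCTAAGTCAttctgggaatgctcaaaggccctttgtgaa

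In Gstp1 the match begins 61 bases before the annotated start. A match is a string of letters and not a shown binding site, and no match was looked for outside these windows.

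Enzymes that conjugate or hydrolyse drugs moved in both directions. Of 23 tested, 4 were called higher and 7 lower, with a median of -0.32. Ephx1, the microsomal epoxide hydrolase, rose from 4313 and 3838 to 20133, 15634, 24219, 24568 and 23774 (2.41 ± 0.22), and Ugt1a6, a glucuronosyltransferase for phenols, from 329.8 and 209 to 1757, 1465, 1392, 2059 and 2074 (3.12 ± 0.33). Since 1 control of Ugt1a6 was under 300, the size of its rise is uncertain. Ugdh, which makes the sugar donor for glucuronidation, was 3.25-fold higher, and the carboxylesterase Ces2c 5.12-fold. Sult2a6, a sulfotransferase of bile acids and steroids, read 1391 and 1053 in control and 9857, 7092, 8845, 7554 and 9228 in foci (2.88 ± 0.28). Against these rises, the carboxylesterase Ces1d fell to 734, 631, 1279, 1681 and 1299 from 9067 and 7583 (-3.07 ± 0.63), and the sulfotransferase Sult1c3 fell by 3.46 on the log2 scale. Fmo1, a flavin monooxygenase, fell by 2.57 on the log2 scale, and foci array 5 (834) stood above the others (388 to 470.0). So related enzymes of one step, such as both carboxylesterases, went in opposite directions.

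Of 14 tested aldo-keto reductases, 3 were called higher and 2 lower, with a median of 0.06 (-0.79 when centred on ribosomal protein genes). The shares over all tested probes were 10.7% and 8.24%, and no trend of the family is read from these small counts. The 3 that rose, Akr1b8, Akr7a3 and Akr1b7, are described above. Akr1c12, a hydroxysteroid dehydrogenase that is among the brightest genes of control liver, read 36981 and 36666 in control and 16715, 16402, 14559, 17342 and 16012 in foci (-1.19 ± 0.11), and Akr1c3 fell by 2.23 on the log2 scale. Of 9 efflux transporters, Abcb1b and Abcc3 rose, and Abcc6, a pump of the sinusoidal membrane, fell from 2854 and 2635 to 1099.8, 931, 1001, 1159 and 954 (-1.49 ± 0.19). The median of this list was 0.13 (-0.72 with that centring), and the remaining pumps were not called. No trend of the list is read from so few calls either. Aldh1a1 was the only one called of 6 aldehyde dehydrogenases, and Aldh3a2, which oxidises fatty aldehydes, differed by -0.64 ± 0.12 and Aldh1b1 by -0.77 ± 0.19, under the 2-fold limit.

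Cytochrome P450 genes outside the Cyp2c family, the oxidases of drug and steroid metabolism, were called lower more often than higher. Of 27 tested, 13 were called lower and 3 higher, with a median of -1.02. Cyp2b15 fell from 3547 and 2479 to 418, 379.5, 466, 478 and 392 (-3.03 ± 0.15, adjusted p = 9.58e-10), and so did Cyp2t1 (-2.15 ± 0.14) and Cyp3a9, a form known to be higher in females (-2.64 ± 0.50). Cyp1a2 differed by -1.31 ± 0.53 (adjusted p = 0.0422), a call that ended when any one of control replicates 1 and 2 and foci replicates 1, 2, 3 and 5 was left out (adjusted p = 0.051 to 0.178). Cyp17a1, which makes androgen precursors, rose from 367 and 380.1 to 2236, 2327, 1624, 925 and 1553 (2.38 ± 0.29). Cyp1a1, the classic target of the aryl hydrocarbon receptor, rose from 153 and 155 to 246, 479, 408, 314 and 372, at least 1.21-fold. For Cyp4b1 the controls read 396 and 342 and the foci 743, 2182, 1184, 553 and 547 (1.46 ± 0.43), and its call ended without control replicate 2 (adjusted p = 0.0652). The aryl hydrocarbon receptor targets Nqo1, Ugt1a6 and Cyp1a1 were thus higher while Cyp1a2 was lower, among 5 tested.

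Male and female rats differ in liver gene expression through the pulse pattern of growth hormone. Of 18 male-predominant genes tested, 15 were called lower and 0 higher, with a median of -2.997 against -0.01 for all tested probes. Apart from the genes named above, Cyp2c13 read 27555 and 27207 in control and 6468, 3790.1, 7521, 8789 and 7092 in foci (-2.09 ± 0.49), and Avpr1a, a vasopressin receptor, 3408 and 3014 and 286, 417, 413, 464 and 589.6 (-3.16 ± 0.55). Cyp2a2 (-1.54), Hsd3b5 (-2.01) and Mup5 (-2.83) fell as well. The female-predominant list was not a mirror image, with 2 higher and 2 lower of 6 (median 0.33, -0.52 when centred on ribosomal protein genes). Cyp2c12, the female-specific steroid hydroxylase, rose from 1130.0 and 1462 to 9541, 15129, 14789.9, 12274 and 10083 (3.31 ± 0.28, adjusted p = 2.01e-07), whereas Cyp2c7, also higher in females, fell from 29066 and 29290.4 to 4876, 7539, 6738, 7063 and 8757 (-2.10 ± 0.27). Among genes of the growth hormone axis, the receptor Ghr fell from 983 and 994 to 330.2, 258, 420.1, 394 and 354 (-1.74 ± 0.19), Igfals and Igfbp3, which carry IGF in blood, were lower (-2.35 ± 0.29 and -1.83 ± 0.21), and Socs2, induced by growth hormone, was at least 2.05-fold lower. Stat5b, the transcription factor of this pathway, differed by -0.73 ± 0.12, under the 2-fold limit. In bulk pools such as these, fewer cells of a type and less RNA per cell cannot be told apart.

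Bile acid genes include the conjugating enzymes and the uptake carriers of the sinusoidal membrane. Of 17 tested, 8 were called lower and 0 higher, with a median of -0.90. Slc27a5, the ligase that activates bile acids, fell from 20336 and 16587 to 3359, 3246, 4056, 4317 and 3840.4 (-2.32 ± 0.56), and Baat, which joins them to taurine or glycine, from 7054 and 7371 to 1759, 1619, 1946, 2015 and 1567 (-2.07 ± 0.29). Slco1b2, an organic anion carrier, read 8193 and 10171 and 1447, 1662, 2463, 2749.6 and 2540.4 (-2.16 ± 0.45), and Amacr, a racemase of side chain oxidation, fell by 2.12 on the log2 scale. Slc10a1, the sodium-dependent uptake carrier, read 19361 and 20336 in control and 6151, 3903, 6183, 6775 and 6584 in foci (-1.78 ± 0.56, adjusted p = 0.0116), and leaving out control replicate 1 or 2 ended the call (adjusted p = 0.0599 and 0.0649). The nuclear repressor Nr0b2 was at least 1.27-fold lower, and its activator Nr1h4, the bile acid receptor, differed by -0.90 ± 0.10. Cyp7a1, the rate-limiting enzyme of bile acid synthesis, read 6848 and 4441 in control and 2059, 2473, 4301, 5008 and 5488 in foci and was not called (-0.63 ± 0.72, adjusted p = 0.452).

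**Figure D3:**
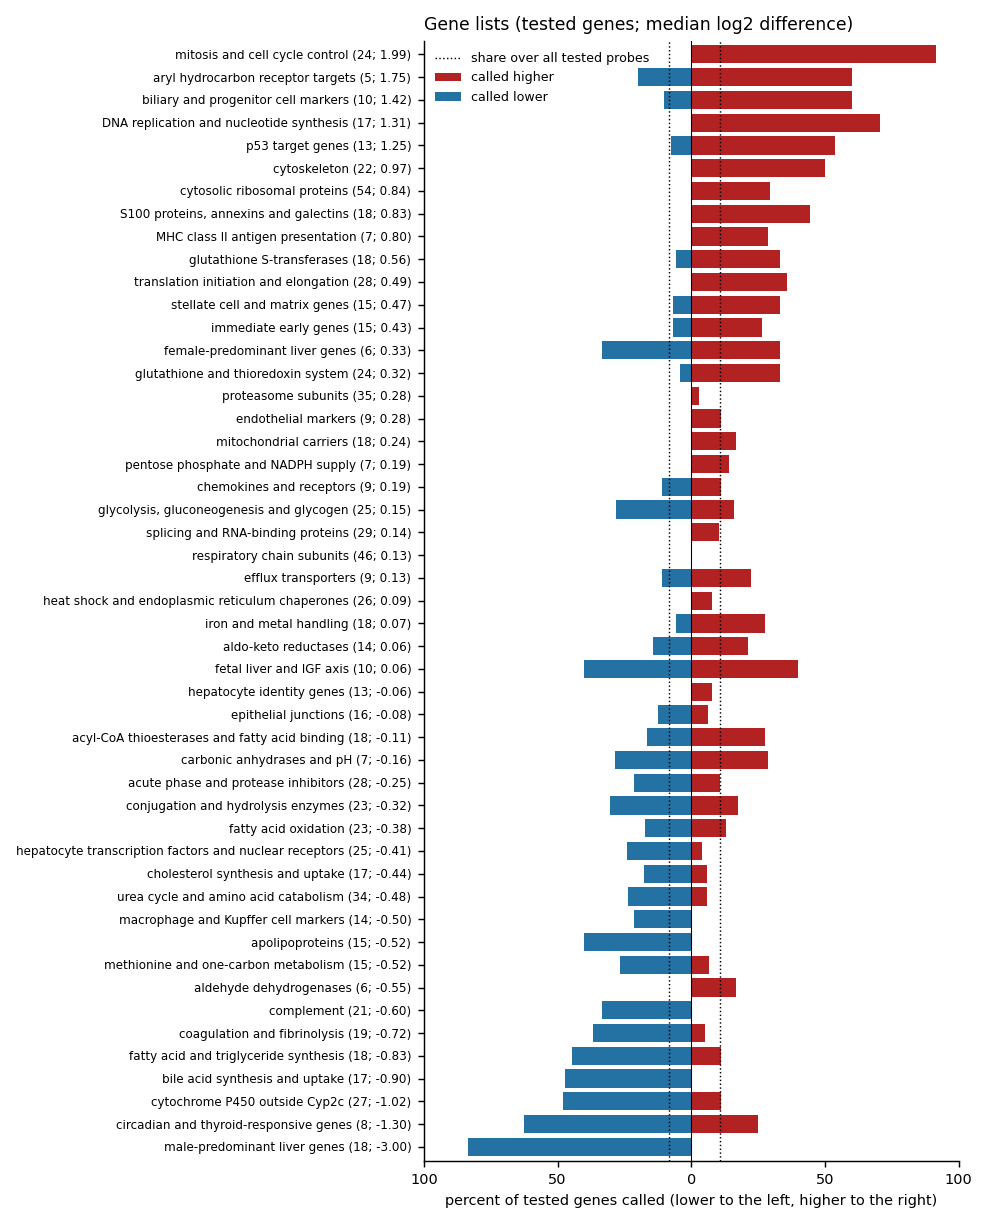
Percent of the tested genes of each list called lower (blue, to the left) or higher (red, to the right) in foci, with the number tested and the median log2 difference in brackets, for lists with at least 5 tested genes, ordered by the median, and dotted lines at the shares over all tested probes (8.24% lower and 10.7% higher). Mitosis genes stand at the top with 22 of 24 higher and male-predominant genes at the bottom with 15 of 18 lower, and lists with medians between 0 and 0.85 fall below 0 when centred on ribosomal protein genes.

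Fatty acid and triglyceride synthesis was lower at several steps. Of 18 genes tested, 8 were called lower and 2 higher, with a median of -0.83. Scd, the main stearoyl-CoA desaturase of liver, read 31204 and 30177 in control and 4216, 1882, 6173, 7820.3 and 5040.3 in foci (-2.78 ± 0.67, adjusted p = 0.00211). Srebf1, the transcription factor that drives this pathway, read 7027 and 5851 and 1263, 879.6, 1339, 1778 and 1143 (-2.43 ± 0.31), and Acly, which makes cytosolic acetyl-CoA, 4814 and 4657 and 1135, 1039, 1477, 1327 and 1384 (-1.97 ± 0.13). Foci array 2 was the lowest of the 5 for all of these. Acaca, acetyl-CoA carboxylase, was at least 1.27-fold lower, and the elongase Elovl5 fell by 2.34 on the log2 scale. The 2 that rose were Dgat1, the last step of triglyceride synthesis (1085 and 1060.5 in control and 3107, 2848, 2241, 2536 and 2559 in foci, 1.36 ± 0.12), and Scd2, a desaturase of other tissues (1.14 ± 0.22). Of 23 fatty acid oxidation genes 3 were called higher and 4 lower, against 0 higher and 6 lower with cyclic loess and 0 and 14 when centred on ribosomal protein genes. Over all tested probes 10.7% were called higher and 8.24% lower, so the main count of 3 higher is near the general share. The rises that cyclic loess moved under the 2-fold limit were those of the thiolase Acaa2 (1.13, then 0.85), the isomerase Eci1 (1.02, then 0.73) and the carnitine transferase Cpt1a (1.05, then 0.92). Without control replicate 1 the latter pair stood at 0.96 and 0.69, without foci replicate 3 at 0.99 and 0.96, Eci1 at 0.94 without foci replicate 2 and Cpt1a at 0.95 without foci replicate 4, all under the limit. By contrast, Pdk4, which holds back pyruvate oxidation, was at least 4.01-fold lower. Among acyl-CoA and fatty acid binding genes, the adipocyte form Fabp4 was at least 3.56-fold higher, the uptake protein Cd36 3.38-fold higher and the brain form Fabp7 fell from 9133 and 11324 to 973, 1090.2, 1489, 1783 and 1377 (-3.03 ± 0.28). The secreted phospholipase gene Pla2g12a rose from 447 and 453 to 3463, 5422, 5028, 4202 and 4529 (3.54 ± 0.18).

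Cholesterol synthesis and uptake held 3 genes called lower and 1 higher of 17, with a median of -0.44. Over all tested probes 8.24% were called lower and 10.7% higher, and no trend is read from these small counts. Insig2, which retains the sterol sensor in the endoplasmic reticulum, fell from 11678 and 12003 to 2858, 2558, 2598, 2565 and 2867 (-2.17 ± 0.15). Pmvk, a kinase of the mevalonate pathway, fell by 1.47 on the log2 scale. Sqle, squalene epoxidase, rose by 1.07 on the log2 scale, and it was under the 2-fold limit without control replicate 2 (0.95) or foci replicate 4 (0.99).

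In glucose metabolism, the glycolytic enzymes Aldoa, Pfkl and Eno1 were higher, and Pklr and the genes of glucose release Slc37a4 and G6pc1 were lower. Of 25 genes tested, 4 were called higher and 7 lower, with a median of 0.15 (-0.70 when centred on ribosomal protein genes and -0.14 with cyclic loess). Aldoa, the muscle aldolase, rose from 589.9 and 567 to 3014, 2998, 2353, 2021 and 2646 (2.30 ± 0.16, adjusted p = 2.43e-08). Pfkl, a phosphofructokinase (1.68 ± 0.14), the enolase Eno1 (1.37 ± 0.20) and Pygb, the brain glycogen phosphorylase (1.31 ± 0.17), rose as well, though 1 of both controls of Pfkl and of Eno1 was under 300 and the size of these rises is uncertain. All of the 5 foci arrays exceeded both controls for each of these, but groups did not overlap for 70.0% of all tested probes. Pklr fell from 3608 and 3264 to 319, 266, 347, 426 and 338. Slc37a4, the carrier of glucose phosphate into the endoplasmic reticulum, fell from 8430.0 and 7505 to 2072, 2439.5, 2317, 2142 and 2080.2 (-1.88 ± 0.13). G6pc1, its enzyme partner, read 10668 and 7940.4 in control and 2614, 3757, 2211, 1290.4 and 2391 in foci (-2.03 ± 0.55), and its call ended without control replicate 1 (adjusted p = 0.0552).

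Genes of amino acid catabolism were more often lower than higher, with 8 genes called lower and 2 higher of 34 (median -0.48). Oat, ornithine aminotransferase, fell from 12819 and 8770.2 to 2098, 2045, 1604, 1597 and 2932 (-2.45 ± 0.24), Kynu, of tryptophan breakdown, from 7677 and 7346 to 1346, 1450.1, 1636, 1799.5 and 1749 (-2.30 ± 0.23), and Ivd, of leucine breakdown, fell by 1.64 on the log2 scale. In the urea cycle itself, Arg1, arginase, read 16529 and 12370.2 in control and 32377, 29290.4, 27207, 26629 and 34949.6 in foci (1.07 ± 0.18), but 0.86 without control replicate 2 and 0.67 with cyclic loess. Asl, the lyase before it, read 1007 and 963 and 2618, 3137, 1673, 1294 and 3274 (1.25 ± 0.34). Otc, ornithine transcarbamylase, differed by -1.15 ± 0.46 (adjusted p = 0.0386), and its call ended without any one of control replicates 1 and 2 and foci replicates 1, 2, 3 and 5 (adjusted p = 0.0511 to 0.161). When centred on ribosomal protein genes Asl stood at 0.40 (adjusted p of limma = 0.252), and 0 genes of the list were called higher and 24 lower. Calls in different directions within the urea cycle thus did not hold in every setting. Of 15 methionine and one-carbon genes, 1 was called higher and 4 lower (7 lower with cyclic loess), with a median of -0.52. The higher one was Tyms, thymidylate synthase (1.24 ± 0.14), just under the 2-fold limit without control replicate 1. Gnmt, the glycine methyltransferase that disposes of excess methyl groups, fell from 25654 and 21678 to 4317, 3939, 3971, 4253 and 3923 (-2.55 ± 0.18), and Cdo1, of cysteine breakdown (-1.63 ± 0.18), and Dmgdh (-1.50 ± 0.14) fell as well.

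Secreted plasma proteins are the main export of hepatocytes. Coagulation and fibrinolysis genes were called lower in 7 and higher in 1 of 19 (median -0.72), complement genes lower in 7 and higher in 0 of 21 (median -0.60), and apolipoprotein genes lower in 6 and higher in 0 of 15 (median -0.52). Factor F12 fell from 4370.0 and 4759 to 1714, 1952, 1869.6, 2105 and 1602 (-1.34 ± 0.14), as did F11 (-1.33 ± 0.16). C8g, a chain of the membrane attack complex, fell from 9971 and 11051 to 2885, 2374, 3009.9, 3676 and 2565 (-1.90 ± 0.26), and Mbl2, a mannose-binding lectin, fell by 2.43 on the log2 scale. Apoa2, a main protein of high density lipoprotein, read 28147 and 27386 in control and 3329.7, 1705, 4020.2, 4698 and 2970.3 in foci (-3.16 ± 0.71, adjusted p = 0.00129). Each of these falls was seen on all 5 foci arrays, but groups did not overlap for 70.0% of all tested probes. Albumin (Alb) and transthyretin (Ttr) differed by -0.27 ± 0.10 and -0.89 ± 0.15 and were not called. Both were called lower when centred on ribosomal protein genes (-1.12 and -1.74).

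Of 28 acute phase genes and protease inhibitors, 3 were called higher and 6 lower (median -0.25). Over all tested probes 10.7% were called higher and 8.24% lower, so the count of 3 higher is near the general share. Serpina3c fell from 33258 and 32816 to 2923, 2238, 3867, 4488 and 8064 (-3.10 ± 0.74), and Serpina4, kallistatin (-3.37 ± 0.26), and Mug2, a murinoglobulin (-2.36 ± 0.31), fell as well. A2m, a protease trap that rises in rat inflammation, read 359 and 424 in control and 4020.2, 2431, 3551, 3771 and 602 in foci (2.85 ± 0.59, adjusted p = 0.000702). Foci array 5 thus stood far under the other 4 foci arrays for A2m, while still above the controls. The same array was at the control level for Kng1, a kininogen (2598 and 2096 in control and 7229, 8154, 10141, 11117 and 2554 in foci, 1.61 ± 0.49), whose call ended without control replicate 2 (adjusted p = 0.0751). Lbp, which binds endotoxin, differed by 1.12 ± 0.42 (adjusted p = 0.0291) with 566, 1349, 1369, 1141 and 471 in foci and 469 and 422 in control, and its call ended without control replicate 1 (adjusted p = 0.0912), control replicate 2 (0.138), or foci replicates 2 (0.0574), 3 (0.0597) or 4 (0.0549).

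Iron and metal handling genes had 5 called higher and 1 lower of 18 (median 0.07, -0.78 when centred on ribosomal protein genes and -0.36 with cyclic loess). Hamp, the iron hormone hepcidin, read 11051 and 7876 in control and 36301, 38363, 39421, 40575 and 39699.7 in foci (2.07 ± 0.11), near the top of the scale. Id1, a target of the same BMP signal, rose from 213 and 248 to 1068, 996, 1054, 962 and 1248, at least 3.55-fold. Mt1, metallothionein, read 4797 and 2589 and 33037, 41138, 32816, 32129.8 and 37814 (3.35 ± 0.57). The iron store gene Ftl1 rose by 1.26 on the log2 scale (0.88 with cyclic loess), and Slc39a8, a metal importer, fell by 1.09 on the log2 scale.

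Hepatocyte transcription factors and nuclear receptors were called lower in 6 and higher in 1 of 25 (median -0.41). Thrb, a thyroid hormone receptor, fell from 867 and 1010.0 to 465, 269.6, 446, 399.9 and 413 (-1.44 ± 0.22). Nr1d1, a repressor of the circadian clock, was the one that rose, from 185 and 207 to 571, 702, 797, 991 and 896, at least 2.64-fold (adjusted p = 2.36e-08). Its clock partner Per1 was at least 1.81-fold higher, with foci arrays at 357, 433, 589, 723 and 608. The activator Bmal1 was at least 1.69-fold lower and Cry1 fell from 1104 and 1172 to 476, 482, 330.4, 362 and 417 (-1.66 ± 0.18). Clock genes thus moved in opposite directions, and the labels used here give no hour of collection. Of thyroid-responsive genes, Dio1, the deiodinase that activates thyroid hormone, fell from 8926 and 9228 to 1444, 1366, 1996, 2204 and 1871 (-2.43 ± 0.22).

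Genes of cell division had the highest share called among the lists with at least 5 tested genes. Of 24 mitosis and cell cycle genes, 22 were called higher and 0 lower, with a median of 1.99 (1.14 with 14 higher and 1 lower when centred on ribosomal protein genes). Cdk1, the kinase that starts mitosis, read 245 and 337 in control and 2343, 1579, 1739, 1559 and 2609.6 in foci (3.10 ± 0.21, adjusted p = 1.64e-08), and since 1 control was under 300 the size of its rise is uncertain. Ccna2, its cyclin in late replication, read 141 and 191 and 909.8, 588, 613, 676 and 942, at least 2.49-fold higher. Aurkb, a kinase of chromosome segregation, read 169.5 and 234 and 1132, 729.7, 816, 675 and 1290.4, at least 3.10-fold higher. Foci arrays 1 and 5 were the highest for all of these genes, and the medians of the list on foci arrays 1 to 5 were 2.34, 1.68, 1.68, 1.77 and 2.27. Ccnd1, the cyclin of entry into the cycle, read 807 and 904 in control and 3421, 2981, 3399.5, 4009 and 4759 in foci (2.20 ± 0.18). DNA replication and nucleotide synthesis genes were higher in 12 and lower in 0 of 17 (median 1.31), and 2 of them were called higher when centred on ribosomal protein genes. Rrm2, which makes deoxynucleotides, read 352 and 382 and 3513, 2361, 2399.5, 2455 and 3933 (3.24 ± 0.18). Mcm6, of the replicative helicase, read 310.2 and 345 and 1817, 717, 1013, 1115 and 1740.4 (2.14 ± 0.30), and Pcna, the sliding clamp, 1860.0 and 2005 and 7426, 4599.9, 5275, 5488 and 8547 (1.70 ± 0.19). Arrays 1 and 5 were again the highest, with medians of the list at 1.69, 0.97, 1.16, 1.16 and 1.79.

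The promoters of these genes were searched for the CCAAT box and for TTTGAA, the core of the cell cycle homology region, on both strands. CCAAT occurred in 16 of 20 mitosis gene windows and in 9 of 16 replication gene windows, against 37.7% of all windows, 42.3% of those called higher, 44.3% of those called lower and 38.8% of those tested and not called. TTTGAA occurred in 13 and 2 of these windows, against 18.1% of all, 15.1% of those called higher, 15.6% of those called lower and 11.1% of those not called. Male-predominant genes, none of them called higher, held TTTGAA in 7 and CCAAT in 5 of 14 windows, so TTTGAA was not particular to genes that rose. The stretches that hold every match in Cdk1, Ccnb2 and Plk1, 3 mitosis genes called higher, are shown to let their spacing be compared, with each match in capitals. Ccnb2, a mitotic cyclin, read 369 and 550.5 in control and 2302, 1338, 1577, 1474 and 1717 in foci (2.06 ± 0.21), and Plk1, a mitotic kinase, was at least 1.49-fold higher.
Cdk1 (chr20:19265063-19265302, + strand): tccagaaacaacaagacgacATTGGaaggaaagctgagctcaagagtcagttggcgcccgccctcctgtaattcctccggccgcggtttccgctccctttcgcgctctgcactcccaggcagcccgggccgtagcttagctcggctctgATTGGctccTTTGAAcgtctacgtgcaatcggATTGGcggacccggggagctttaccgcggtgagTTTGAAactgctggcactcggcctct
Ccnb2 (chr8:79981676-79981892, - strand): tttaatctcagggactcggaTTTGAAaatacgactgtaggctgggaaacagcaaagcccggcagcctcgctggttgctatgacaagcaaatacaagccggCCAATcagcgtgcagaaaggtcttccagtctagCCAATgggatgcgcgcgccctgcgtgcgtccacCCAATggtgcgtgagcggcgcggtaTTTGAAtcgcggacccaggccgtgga
Plk1 (chr1:186147600-186147689, + strand): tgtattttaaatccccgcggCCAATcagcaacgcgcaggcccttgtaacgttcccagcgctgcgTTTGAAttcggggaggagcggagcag

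Targets of p53 were called higher more often than lower. Of 13 p53 targets, 7 were called higher and 1 lower (median 1.25, and 4 higher and 3 lower when centred on ribosomal protein genes). Cdkn1a, an inhibitor of cyclin-dependent kinases, read 150.3 and 154 in control and 325, 402, 421, 428 and 471 in foci, at least 1.36-fold higher. Mdm2, the ligase that degrades p53, read 483 and 524 and 1386, 2118, 1589, 1901 and 1612 (1.91 ± 0.18), and Ccng1, cyclin G, 794 and 944 and 3018, 3786, 3790.1, 3111 and 3251 (2.05 ± 0.15). For Mdm2 and Cdkn1a foci array 1 was the lowest, in contrast to the cell cycle genes. Of 15 immediate early genes, 4 were called higher and 1 lower, with a median of 0.43 (-0.42 with that centring). Myc, a driver of growth, read 265 and 232 and 976, 691, 1061, 1099.8 and 1108, at least 3.29-fold higher, and Egr1 was at least 3.00-fold higher. Junb, a part of the AP-1 factor, rose as well (1.96 ± 0.18). Dusp1, a phosphatase that ends kinase signals, fell from 5729 and 4508 to 1035, 1087, 2277, 2826 and 1255 (-1.76 ± 0.36).

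Genes of ribosomes and translation were called in the upward direction alone. Of 54 cytosolic ribosomal protein genes, 16 were called higher and 0 lower (median 0.84, and 0.47 with 7 called higher with cyclic loess), a rise that centring on them removes by construction. Rpl17 read 6202 and 6728 in control and 20774, 23912, 19572, 20701 and 22061 in foci (1.74 ± 0.10), and Rps12 1649 and 1635 and 5785, 6288, 5601, 4639 and 5158 (1.78 ± 0.13). Of 28 translation genes, 10 were called higher and 0 lower (median 0.49, -0.36 when centred on ribosomal protein genes). Nop58, of ribosome assembly, read 1005 and 1034 and 4884, 3447, 3058, 3126 and 3730.4 (1.89 ± 0.20), and Eif5a, a translation factor modified with a polyamine, 1266 and 1232 and 4221, 3582, 3317, 3561 and 3995 (1.63 ± 0.12). Both polyamine enzymes named here were higher as well. Odc1, the first enzyme of polyamine synthesis, read 413 and 546 and 1636, 1788, 1428, 1242 and 1349.9 (1.80 ± 0.17), and Srm, spermidine synthase, 475 and 491 and 2459, 2429, 1784, 1896 and 2340.3 (2.34 ± 0.14). By contrast, 0 of 46 respiratory chain genes were called higher and 0 lower in limma (median 0.13, -0.72 when centred on ribosomal protein genes and -0.10 with cyclic loess), although 16 were higher and 5 lower by the adjusted p alone. Proteasome genes were called higher in 1 and lower in 0 of 35 (median 0.28, -0.57 with that centring).

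Structural and calcium-binding proteins included further rises. Of 22 cytoskeleton genes, 11 were called higher and 0 lower (median 0.97, 0.12 with 1 higher and 2 lower when centred on ribosomal protein genes). Tubb6, a beta tubulin, read 288 and 252 in control and 2238, 1771, 1606, 1785 and 2236 in foci, at least 6.42-fold higher, and Krt8, a keratin of hepatocytes but not of these alone, 4501 and 5363 and 17636, 16715, 15439, 16158 and 17416 (1.78 ± 0.10). In oval cells Krt8 read higher still (21574 to 26033 over the 6 arrays). Of 18 S100 proteins, annexins and galectins, 8 were called higher and 0 lower (median 0.83, -0.02 with that centring). Anxa2, which binds membranes and plasminogen, read 299 and 297 and 1530.3, 1639.9, 1432, 1447 and 1449, at least 5.00-fold higher with little spread. Lgals2 (783, 1289.6, 894, 888 and 873 in foci), S100a6 (460.5, 972, 728, 524 and 594) and Lgals1 (501, 870.5, 631, 444 and 574) were highest on foci array 2, and in oval cells they read higher still (3733 to 5894, 2008 to 3313 and 3111 to 4308 over the 6 arrays). Nefl, a neurofilament chain, was at least 3.23-fold higher, with foci arrays 1 and 5 (1309 and 1689) above the other 3 (589 to 649.6).

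The labelled cell type was checked against markers of the cells that a dissected liver sample can hold. Of 13 tested hepatocyte identity genes 1 was called higher (Krt8) and 0 lower, with a median of -0.06 (-0.91 when centred on ribosomal protein genes) and summed intensities of 322279 to 333931 on control and 294086 to 321234 on foci arrays. On oval cell arrays the sum was 315547 to 341125, so this list does not tell foci from oval cells. Of 10 biliary and progenitor markers, 6 were called higher and 1 lower (median 1.42, 0.57 with 3 higher and 1 lower with that centring). Krt19, the biliary keratin, read 248 and 347 in control, 433, 1248, 726, 506 and 591 in foci and 5363 to 8286 over oval cell arrays (1.38 ± 0.33 against control, of uncertain size since 1 control was under 300), and its call ended without control replicate 1 (adjusted p = 0.0548). A t-test with Benjamini-Hochberg adjustment did not call it either (adjusted p = 0.0723). In the study's staining no early focus was positive for its protein, CK-19. Epcam, an adhesion protein of biliary cells, read 515 and 509.5 in control, 942, 1866, 1218, 1144 and 1418 in foci and 4465 to 6707 in oval cells (1.45 ± 0.21 against control). Cd24, a progenitor surface protein, read 352 and 353, 917, 1770.2, 1400.2, 906 and 1171 and 5608 to 9688 (1.99 ± 0.25 against control). For all of these foci array 2 was the highest of the foci arrays and the oval cell arrays lay above every foci array. Prom1, a stem cell surface protein, was at least 1.29-fold higher than control, and Afp, the fetal albumin, read 1044 and 1294, 2587, 5894, 3834, 2582 and 3737 and 6886 to 14607 (1.67 ± 0.33 against control). When centred on ribosomal protein genes, Krt19, Epcam, Prom1 and Afp stood at 0.53, 0.60, 0.71 and 0.82 against control and were not called. The summed intensity of the list was 6323 to 6859 on control, 7338 to 11271 on foci and 28599.9 to 41907 on oval cell arrays. Krt7 had a median under 300 in both groups and was not tested. Onecut1, a factor of biliary and hepatocyte fate, was the one lower gene (-1.10 ± 0.30), with foci array 5 (3032) next to the controls (3050.3 and 3050.3), and it was under the 2-fold limit without foci replicate 4 (-0.94).

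Markers of other cells moved as well. Of 15 stellate cell and matrix genes, 5 were called higher and 1 lower than in control (median 0.47, -0.38 when centred on ribosomal protein genes), and 14 were called lower in foci than in oval cells. Vim, the mesenchymal filament, read 1073 and 1325 in control, 1952, 3933, 3083, 2662 and 2862 in foci and 8448 to 11086 in oval cells (1.30 ± 0.20 against control). Over foci arrays 1 to 5 the list medians against control were 0.05, 1.15, 0.71, 0.14 and 0.41 for these genes and 0.79, 2.15, 1.47, 1.13 and 1.42 for the biliary list, highest on array 2 in both. The summed intensity of the stellate cell list was 25299 to 26118 on control, 20939 to 36936 on foci and 77632 to 107322 on oval cell arrays, and the part of biliary and stellate cells in the results was not tested. Of 14 macrophage and Kupffer cell markers, 3 were called lower and 0 higher (median -0.50), namely the endotoxin co-receptor Cd14 (2721 and 1735 and 599, 855, 725, 699.5 and 591, -1.77 ± 0.20), Vsig4 (-1.74 ± 0.21) and the scavenger receptor Marco (-1.65 ± 0.29). The sum of this list was 22156 to 26429 on control and 17836 to 22836 on foci arrays. Of 7 MHC class II genes, 2 were higher, among them RT1-DMa (344 and 344 and 719.6, 1011, 777, 767 and 728, 1.40 ± 0.19), with a list median of 0.80 (-0.05 with that centring). All 3 tested globin genes fell, Hbb from 11394 and 11117 to 2412, 2600.1, 2140.4, 2131 and 2673 (-2.28 ± 0.29), and Hba-a1 (-1.93 ± 0.28) and Hbb-b1 (-2.36 ± 0.20) as well. Endothelial markers were called higher in 1 and lower in 0 of 9 (median 0.28, -0.57 with that centring), and lymphocyte markers higher in 0 and lower in 1 of 4. The chemokine Cxcl12 fell from 3697 and 3903 to 849, 1101, 1328, 1187 and 1044 (-1.87 ± 0.22), while it read 3103 to 5564 in oval cells.

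**Figure D4:**
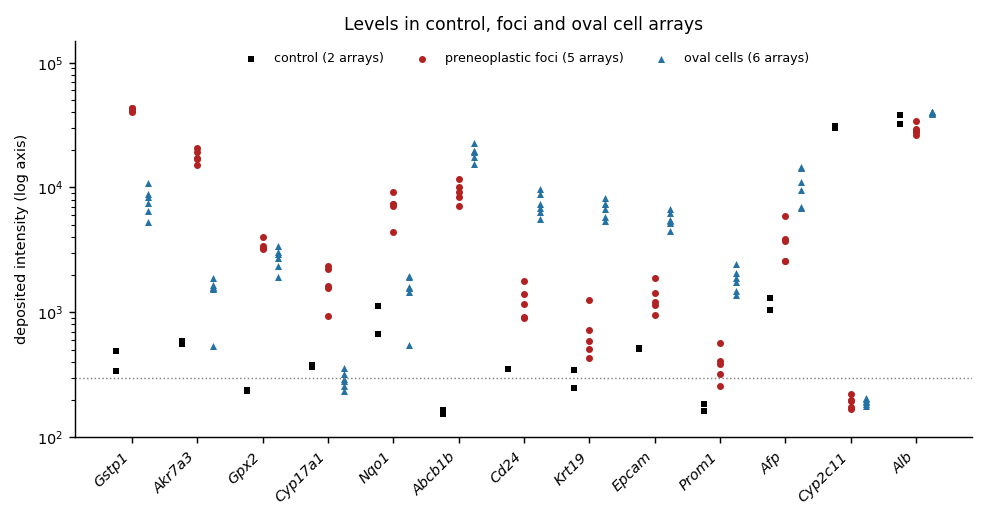
Deposited intensity (logarithmic axis) of 13 genes on the 2 control (black squares), 5 foci (red circles) and 6 oval cell arrays (blue triangles), 1 point per array, with the dotted line at 300. Akr7a3, Cyp17a1 and Nqo1 are highest in foci, Cd24, Krt19, Epcam and Prom1 are highest in oval cells, and Cyp2c11 lies near the floor in foci and oval cells.

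The fit also gave foci against oval cells, which were taken in the same week, for the tested probes. In limma 865 probes were called (13.1%), 471 higher in foci (7.11%) and 394 lower (5.95%), and this comparison too is one of slides. Of 24 glutathione and thioredoxin genes 6 were higher in foci and 0 lower, and of 18 glutathione transferases 7 and 0. Akr7a3 read 536 to 1892 in oval cells (foci minus oval cells 3.78, adjusted p = 1.81e-08). Of the 4 markers of foci, 3 were called higher in foci than in oval cells. Gpx2 was not, since it read 1906 to 3408 in oval cells (foci minus oval cells 0.37). Aldh1a1 (18896 to 21062 in oval cells) and Car2 (3980 to 6445) were not called either (-0.30 and -0.11). The rises of Gpx2, Aldh1a1 and Car2 over control were thus not particular to foci. A2m read 163 to 296 in oval cells (at least 9.58-fold higher in foci, adjusted p = 7.92e-07) and Defb1 171 to 215 (at least 4.44-fold, adjusted p = 5.04e-10). Cyp17a1 read 235 to 358 (foci minus oval cells 2.86, adjusted p = 2.73e-08). In oval cells A2m, Cyp17a1 and Defb1 were thus near or under their control levels. Abcb1b was lower in foci than in oval cells (15321 to 22575 over the 6 arrays, foci minus oval cells -1.04, adjusted p = 2.68e-06). None of the 24 mitosis genes was called in either direction in this comparison by limma (0 higher and 0 lower), and Cdk1 differed by -0.26 (adjusted p = 0.135). Male-predominant genes were higher in foci in 3 and lower in 0 of 18, and Cyp2c11 was at the floor in foci and oval cells. Against control, 16 of these 18 genes were called lower in oval cells too (median -3.68), so their fall was not particular to foci.

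The 5 foci arrays differed most from each other for a few genes. Nupr1, a stress-induced chromatin protein, read 993, 3388, 1971, 752 and 577 in foci and 1724 and 1119 in control and was not called (-0.20 ± 0.66). Thrsp, a lipogenic protein that answers to thyroid hormone, read 2589, 1598, 6717, 9826 and 5078 and 23325 and 19112 (-2.34 ± 0.66, adjusted p = 0.00607), and its call ended without control replicate 1 (adjusted p = 0.0543). Sds, serine dehydratase, read 6940.4, 6183, 3444, 1612 and 9718 and 4119 and 2784 (0.48 ± 1.00, adjusted p = 0.69). The order of the arrays was not the same for these genes, since array 2 was highest for Nupr1, array 4 for Thrsp and array 5 for Sds. Fst, the activin antagonist follistatin, read 470.2, 1248, 701, 359 and 274 in foci and 153 and 154 in control, at least 2.04-fold higher. Cyp3a2, a male-predominant P450, read 4843, 1825, 7742, 9495 and 6445 and 24419 and 23774 (-2.20 ± 0.98, adjusted p = 0.0602), which missed the threshold, although no foci array reached a control. The same difference passed it when only the 7 arrays compared were fitted (adjusted p = 0.00331), and it also passed without background correction, with cyclic loess and with ribosomal centring (adjusted p = 0.0126 to 0.0497). Mx2, an interferon-induced gene, read 241, 146, 333, 520.5 and 236 and 492 and 489 (-1.14 ± 0.47, adjusted p = 0.0447), and its call ended without control replicate 1 (adjusted p = 0.155), control replicate 2 (0.141), or foci replicates 1 (0.0717), 2 (0.0657) or 5 (0.0725). Igfbp1, which binds IGF, spread from 1936 on array 1 to 8525 on array 2 (1.82 ± 0.56, adjusted p = 0.0108), and its call ended without control replicate 2 (adjusted p = 0.14). Over all tested probes, 9, 37, 7, 25 and 18 probes lay at least 2-fold from the median of the other 4 foci arrays on arrays 1 to 5. No foci array therefore stood apart from the rest over more than a small part of the probes.

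**Figure D5:**
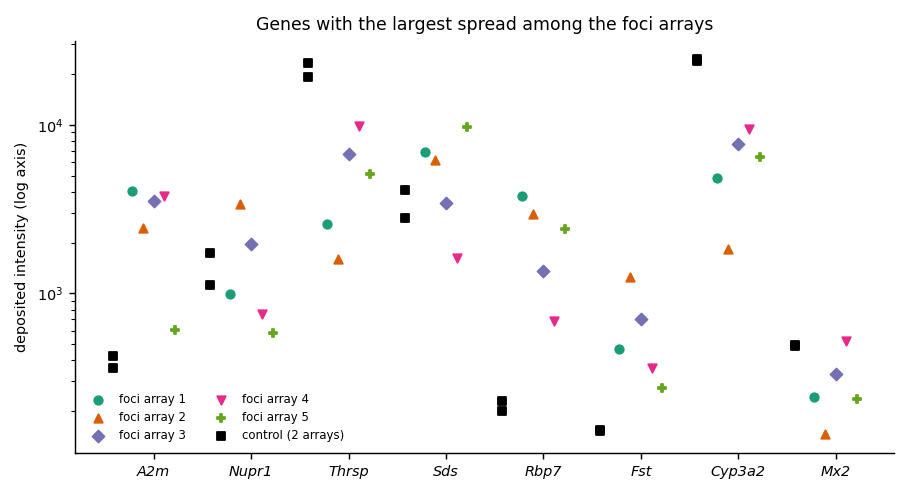
Deposited intensity (logarithmic axis) of the 8 genes with the largest spread among foci arrays, with a separate symbol and colour for each of the 5 foci arrays and black squares for the 2 control arrays. Foci array 5 is lowest for A2m (602) and highest for Sds (9718), and foci array 2 is lowest for Thrsp and Cyp3a2 and highest for Nupr1 and Fst.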

How the data were processed

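RNA of laser-microdissected cells was amplified, labelled with biotin and hybridised to Illumina rat bead arrays. The authors read the arrays with BeadStudio 3.0.19.0 (per the labels) and deposited intensities that had been quantile-normalised over the 13 arrays, without a log and between 104.0 and 43185.5. A further deposited table held 26 columns of per-sample values whose names match no sample's labels, and it was not used here.

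Intensities were background-corrected with normexp (offset of 50), quantile-normalised and put on the log2 scale. All 13 arrays entered 1 linear model by group in limma 3.58.1 (R 4.3.3), with moderated tests and Benjamini-Hochberg adjustment over the 6627 tested probes. On simulated data for foci against control over 6627 probes, 45% of 2-fold and 100% of 4-fold changes were called, and 0.016% of unchanged probes. The fold limit held the first share down, since 94% of the 2-fold changes had an adjusted p under 0.05. The simulated arrays were independent, with no slide effect and most probes unchanged. The share of 0.016% is therefore no estimate of false calls in these data. Of the 22523 probes, 13793 carried 1 gene symbol and 8730 none, and 13752 matched a current RefSeq gene. Of 1456 entries in 54 gene lists, 1183 were on the array. For a gene with several probes, the probe with the highest mean over the 7 arrays was used. Of 73 genes with several tested probes, 18 had a called probe, and all probes of 11 of these were called. No probes of these 18 genes differed in sign.

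The 15 largest rises and falls were taken from called genes whose foci and control intensities do not overlap. Named with them were the markers, the 3 members of lowest adjusted p in each list together with called members against the direction of their list, and the 8 genes of largest SD over foci. This gave 201 genes, and 72 more were named after their values were seen. The members and the lists were chosen with earlier results of these data known, and the promoter motifs after looking at the data. One gene is not reported here. The alternatives changed the background correction, filter, fold limit, arrays, prior, normalization, centring and test.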

Additional observations from a re-analysis of the deposited data

Results flagged for a closer look

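Among the 273 named genes, 11 had 1 foci array whose distance from the nearest of the other 4 exceeded Dixon's limit of 0.71 of the range over the 5 arrays. Chance alone flags about 1 in 20 groups, so 11 of 273 is no more than chance would give. Of the 11, 6 concerned foci array 2. On that array, the glutathione transferase Gsta3 was low at 4452.6 against 5718.1 on the nearest array, and the bile acid carrier Slc10a1 was low at 3902.9 against 6150.7. Foci array 2 was high for the antigen-loading gene RT1-DMa (1010.6 against 777.2), the galectin Lgals2 (1289.6 against 893.5), the endothelial adhesion gene Esam (592.3 against 468.6) and the translation repressor Eif4ebp1 (2490.1 against 2092.2).

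Foci array 5 was high for the carbonic anhydrase Car2 (6787.6 against 4508.1), for Onecut1 (3032.4 against 1383) and for the monooxygenase Fmo1 (834.4 against 470.0). Foci array 1 was high for the peroxidase Gpx2 (4005.3 against 3407.6), and foci array 4 for catalase, Cat (4215.6 against 3636.9). All 5 foci arrays still lay on one side of both controls for each of these genes, as was so for 70.0% of tested probes.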

How the results depend on the processing

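The slide could not be entered as a block, and no statement here separates it from the group. No paired analysis was possible because the replicate number in the labels marks the group and pairs no arrays. With 2 control arrays, each control weighs heavily in every difference, and dim probes and the brightest probes have folds of uncertain size.

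The study's own filter left 1568 probes, of which 633 were called (367 higher and 266 lower). Without the fold limit 4414 probes were called against control (2174 higher and 2240 lower) and 4564 against oval cells. Centring on ribosomal protein genes gave 2984 calls, 162 higher and 2822 lower (5.43% higher). Leaving out 1 array gave 1157 to 1345 calls, 653 to 741 of them higher and 504 to 604 lower, 55.09% to 56.73% higher, and 834 to 893 calls against oval cells. The t-test that the study names for its general statistics (the methods' t-test, with equal variances and the same fold limit) called 1245 probes unadjusted and 1237 after Benjamini-Hochberg adjustment, and the random-variance test that the study names for its arrays was not run. All other settings gave between 978 and 1437 calls. With ribosomal centring 9 named genes changed sign, Taldo1 (-0.06), Ccn1 (-0.42), RT1-Da (-0.17), Esam (-0.37), Uqcrc1 (-0.21), Cox8a (-0.06), Psmc5 (-0.14), Psma2 (-0.12) and Sds (-0.37), and 63 others lost their call. A further 24 named genes gained a call as lower, among them Nr1h4 (-1.75), Ttr (-1.74), Keap1 (-1.18) and Alb (-1.12). Nupr1, not called, changed sign without control replicate 1 (0.13) and without foci replicate 5 (0.10), within a range of -0.58 to 0.13 when 1 array was left out. Without 1 array, 4 to 15 of the 273 named genes lost their call, and 14 did under cyclic loess. The causes were not tested.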
